A study of Mus musculus with 11 samples.

Results

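The 8 genes described here encode the enzymes that build the covalent cross-links of collagen and elastin: the lysyl oxidases Lox, Loxl1, Loxl2, Loxl3 and Loxl4, and the lysyl hydroxylases Plod1, Plod2 and Plod3. They were chosen by name, as the rows of the merged count table whose symbol is one of these, and all 8 were found among its 22600 genes. RNA was sequenced from whole distal tibial bone, marrow included, of 4 controls and 7 BMAd-DTA mice of the C57BL6/SJL strain, labelled 24 weeks old and fed ad libitum. The study's legend that covers this RNA-Seq describes calcein injections before dissection for the mice of that figure. BMAd-DTA mice carried a ROSA-DTA allele, in which a LoxP-flanked stop cassette must be removed before diphtheria toxin A is made, together with a Cre meant for bone marrow adipocytes (BMAds). That Cre sits in the endogenous Adipoq locus in reverse orientation (the FAC allele) and is turned by a flippase under Osterix (Osterix-FLPo). By the study's methods the controls, labelled BMAd-WT, carried the Osterix-FLPo and FAC alleles as well, so both groups share whatever these alleles do by themselves. The study describes this Cre as less efficient in young mice and as active in a minority of the marrow adipogenic precursors. The comparison asks how the cross-linking genes of a bone differed when its BMAds were depleted.

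Collagen cross-linking begins inside the cell, where lysyl hydroxylases add a hydroxyl group to chosen lysines of the procollagen chain. Outside the cell, copper-dependent lysyl oxidases turn lysines and hydroxylysines into aldehydes, which then condense spontaneously into the bonds that hold fibrils together. Hydroxylation of the telopeptide ends, the work of Plod2, directs the cross-links toward the stable pyridinoline type that bone and cartilage are known for, while Plod1 acts mainly on lysines of the triple helix and Plod3 also adds sugars to hydroxylysine. By Raman microscopy of distal tibia, the study compared a ratio of mature pyridinoline to immature cross-links and reported no difference between its genotypes. The RNA levels below do not measure cross-links.

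The families differ in their catalytic sequence, which is shown because it carries the chemistry that separates them. Coding stretches of 24 bases were read from the GENCODE M21 transcripts (GRCm38), with no stretch printed for Lox. In the lysyl oxidases the capitals mark the 4 histidine codons of the copper-binding stretch.
Loxl1: CATagctgtCACcaaCATtacCAC
Loxl2: CACgactgcCACaggCACtacCAC
Loxl3: CATgagtgtCATgggCATtacCAC
Loxl4: CACcagtgcCACaggCACtacCAC
In the lysyl hydroxylases, which use iron and 2-oxoglutarate, the capitals mark the histidine and aspartate codons of the iron-binding pair.
Plod1: atgcccCACcatGACgcctctacc
Plod2: cgtcccCACcacGATgcctcaacc
Plod3: cggccaCACcatGACtcgtccacc
Loxl2 and Loxl4 had 22 of 24 bases in common and were the closest pair, while Loxl1 and Loxl4 had 15 in common, the fewest among these 4 genes. The Plod genes had 17 or 18 of 24 bases in common. Over whole transcripts, the longest identical run between any members was 32 bases, between Lox and Loxl1, which is shorter than a 100-base read.

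On GRCm38 the members lie on 7 chromosomes. Lox is on chromosome 18, minus strand. Loxl1 occupies chr9:58287738-58313186 on the minus strand and Plod2 chr9:92542223-92608428 on the plus strand. Loxl2 lies at chr14:69609068-69695834 (plus), Loxl3 at chr6:83034173-83052562 (plus) and Loxl4 at chr19:42593982-42612813 (minus). Plod1 lies at chr4:147909753-147936767 (minus) and Plod3 at chr5:136987019-136996648 (plus). The values below are counts of reads from the gene's own strand over its exons. Protein-coding neighbours on the opposite strand overlap Loxl3 (Htra2) and Plod3 (Znhit1), where 45.9% and 9.70% of the strand-assigned reads lay on the other strand, against at most 0.679% for the other 6 members.

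The merged table held 16969529 to 18637663 counts per library (median 17612195), and 16496 genes passed the filter on low counts. All 8 members passed it, with at least 91 counts in every library. Libraries differed in their tissue content. The summed level of 10 skeletal muscle markers ranged from 16.1 to 1321 CPM (counts relative to the scaled library total) in controls and from 16.9 to 1042 CPM in BMAd-DTA mice, highest in Control replicate 3 and BMAd-DTA replicate 6. Type I collagen (Col1a1 and Col1a2 together) stood at 2266 CPM in Control replicate 1 and between 10297 and 11456 CPM in the other controls. The labels give no sex and the study's legends for these experiments describe male mice, whereas every library held 13810 to 20260 counts of the female-expressed Xist. Summed over 10 markers, adipocyte RNA was 1010 to 1706 CPM in controls and 396 to 1235 CPM in BMAd-DTA mice, so that the ranges overlapped; all 10 markers were lower on average, and Retn, which encodes resistin, passed the test.

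Loxl2 was the 1 member that edgeR called higher in BMAd-DTA mice, and it was among the 4 that DESeq2 called. In controls it stood at 31.4, 39.0, 38.9 and 33.2 CPM, and in BMAd-DTA mice at 49.4 CPM in the lowest library, 58.7 in the median one and 72.4 in the highest. Every BMAd-DTA library was above every control. Loxl2 encodes a secreted lysyl oxidase with scavenger receptor domains, best known for cross-linking type IV collagen of basement membranes and for its expression in hypertrophic cartilage. Its mean was 35.6 ± 3.93 CPM in controls (SD, n = 4) and 60.7 ± 8.71 CPM in BMAd-DTA mice (SD, n = 7), a log2 fold change of 0.77 ± 0.11 (SE, 95% interval 0.52 to 1.02), with adjusted p = 0.0326 (edgeR's quasi-likelihood test, Benjamini-Hochberg adjustment across every gene tested). By p-value it ranked 5 among all genes tested.

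The call for Loxl2 was sensitive to single libraries although its size was not. With each library left out in turn, the log2 fold change stayed between 0.71 and 0.82, and edgeR's adjusted p ran from 0.0283 to 0.142. It passed the threshold in 5 of 11 such fits. It did not pass without Control replicate 1 (adjusted p = 0.142 by edgeR), Control replicate 2 (0.102), BMAd-DTA replicate 1 (0.0560), replicate 3 (0.0543), replicate 4 (0.0547) or replicate 6 (0.0515). Those fits called few genes of any kind. Without Control replicate 1 or 2, or BMAd-DTA replicate 1 or 6, 0 genes passed. Without BMAd-DTA replicate 3 there were 8, and without BMAd-DTA replicate 4 there were 3, against 13 with all libraries. With a skeletal muscle score as a covariate, edgeR gave Loxl2 a log2 fold change of 0.73 with adjusted p = 0.0687. That fit called 3 genes in all.

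Loxl4 had the largest difference of the 8 genes and the lowest level. Controls held 5.02, 7.60, 6.80 and 4.82 CPM, and BMAd-DTA mice 8.79 CPM at the lowest, 11.7 at the median and 22.7 at the highest. The groups did not overlap here either, and the spread within BMAd-DTA mice was wide, with replicate 3 above the rest. The log2 fold change was 1.12 ± 0.26 (SE, 95% interval 0.56 to 1.67), which did not pass (edgeR's quasi-likelihood test, adjusted p = 0.0720), while DESeq2 gave it an adjusted p of 0.00105. Without BMAd-DTA replicate 3 the log2 fold change was 0.93. Loxl4 is a further scavenger-receptor type lysyl oxidase, the nearest relative of Loxl2 in the copper-binding stretch shown above.

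Plod2, the telopeptide lysyl hydroxylase, stood at 29.0, 41.5, 64.9 and 40.5 CPM in controls. In BMAd-DTA mice it ran from 58.8 CPM through a median of 66.2 to 110 CPM. Control replicate 3 lay above 3 of the 7 BMAd-DTA libraries, and the other controls lay below all of them. Its log2 fold change was 0.81 ± 0.23 (SE, 95% interval 0.31 to 1.31; edgeR's adjusted p = 0.115), as large as that of Loxl2 with a wider error. Without Control replicate 3 it became 1.06 and passed (edgeR's adjusted p = 0.0458), in a fit that called 1.05% of all genes higher, and DESeq2 called it with all libraries (adjusted p = 0.0101). Plod2 transcripts make proteins of 737 or 758 residues, differing by an exon of 63 bases, and gene counts do not separate these.

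**Figure D1:**
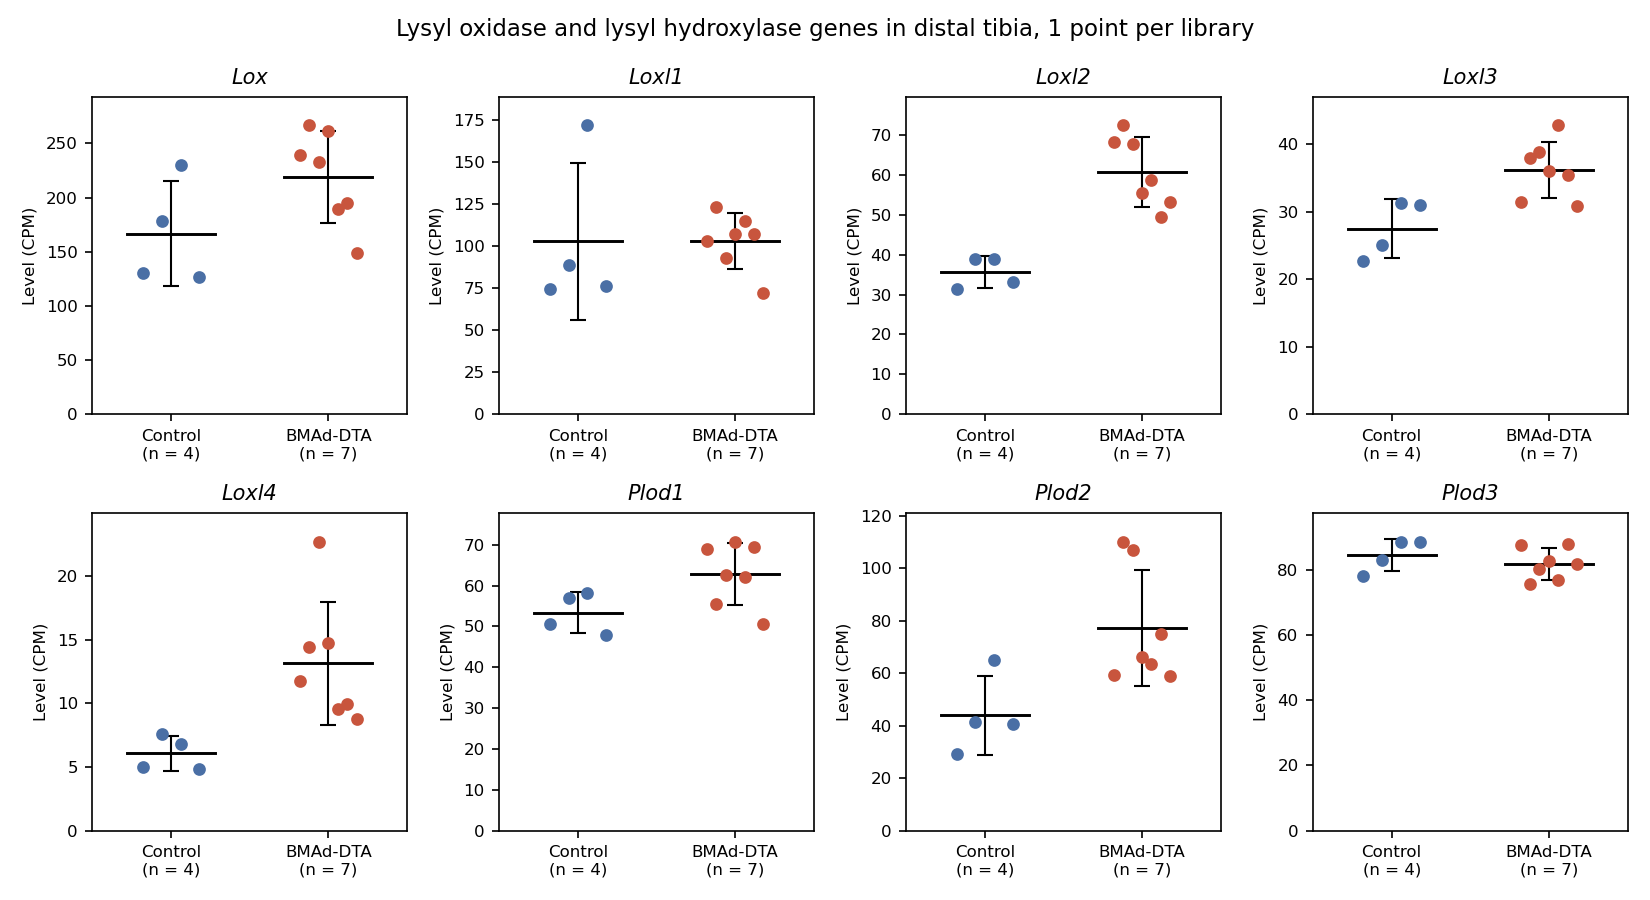
Level of each of the 8 genes in CPM (vertical axes, starting at 0) in 4 Control and 7 BMAd-DTA libraries; points are libraries, horizontal lines means and bars ± SD. Loxl2 and Loxl4 show no overlap between the groups, whereas Loxl1 and Plod3 overlap throughout, with 1 control far above the others for Loxl1.

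Lox, the founding member and the main lysyl oxidase of fibrillar collagen, stood at 131, 179, 230 and 127 CPM in controls. BMAd-DTA mice held 149 CPM at the lowest, 233 at the median and 267 at the highest, and 4 of 7 were above every control. Its log2 fold change of 0.39 ± 0.18 (SE, 95% interval -0.0026 to 0.79) did not pass (edgeR's adjusted p = 0.308). Without Control replicate 3, its highest control, the value was 0.59.

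Loxl3, needed for cross-linking in the palate and spine, was at 22.7, 25.1, 31.4 and 31.0 CPM in controls and between 30.8 and 42.8 CPM (median 36.0) in BMAd-DTA mice. Only BMAd-DTA replicate 7 fell within the range of the controls. On the log2 scale the difference was 0.39 ± 0.11 (SE, 95% interval 0.15 to 0.64), with adjusted p = 0.114 by edgeR and 0.0296 by DESeq2.

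Plod1, the helical lysyl hydroxylase, held 50.6, 56.8, 58.3 and 47.8 CPM in controls and 50.6 to 70.7 CPM (median 62.5) in BMAd-DTA mice. The groups overlapped, 5 of 7 BMAd-DTA libraries lying higher than any control, and the log2 fold change was 0.24 ± 0.098 (SE; edgeR's adjusted p = 0.249).

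For Loxl1 and Plod3, both tools gave values near 0. Loxl1, which is tied to elastic fibre renewal, stood at 74.6, 88.9, 172 and 76.1 CPM in controls and between 72.1 and 124 CPM (median 107) in BMAd-DTA mice. Control replicate 3 was above every other library, and the other controls were at or below 88.9 CPM, beneath 6 of 7 BMAd-DTA libraries. The log2 fold change was 0.0042 ± 0.21 (SE, 95% interval -0.45 to 0.46; edgeR's adjusted p = 0.995), and it moved to 0.37 without Control replicate 3 and to -0.12 without Control replicate 1. Plod3 was the steadiest of the 8, at 78.1, 83.0, 88.4 and 88.6 CPM in controls and 75.5 to 87.9 CPM (median 81.6) in BMAd-DTA mice. Its log2 fold change of -0.049 ± 0.062 (SE, 95% interval -0.18 to 0.084; edgeR's adjusted p = 0.754) had the narrowest interval, which holds no rise above 0.084 and no fall beyond -0.18.

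Of the 8 members, 1 was called higher and 0 lower, against 0.0727% and 0.00606% of all 16496 genes. An unadjusted edgeR p under 0.05 was found for 5 (Loxl2, Loxl3, Loxl4, Plod1 and Plod2), all higher. The share of all genes both under 0.05 and higher was 7.89%, and 2708 of 16496 were under it in either direction. DESeq2 called 4 higher (Loxl2, Loxl3, Loxl4 and Plod2), against 2.78% of the genes it gave an adjusted p, and 0 lower, against 2.64%. The 2 members whose BMAd-DTA libraries were all above all controls, Loxl2 and Loxl4, compare with 1.78% of all genes. The median log2 fold change was 0.39 over the members and 0.0018 over all genes tested.

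**Figure D2:**
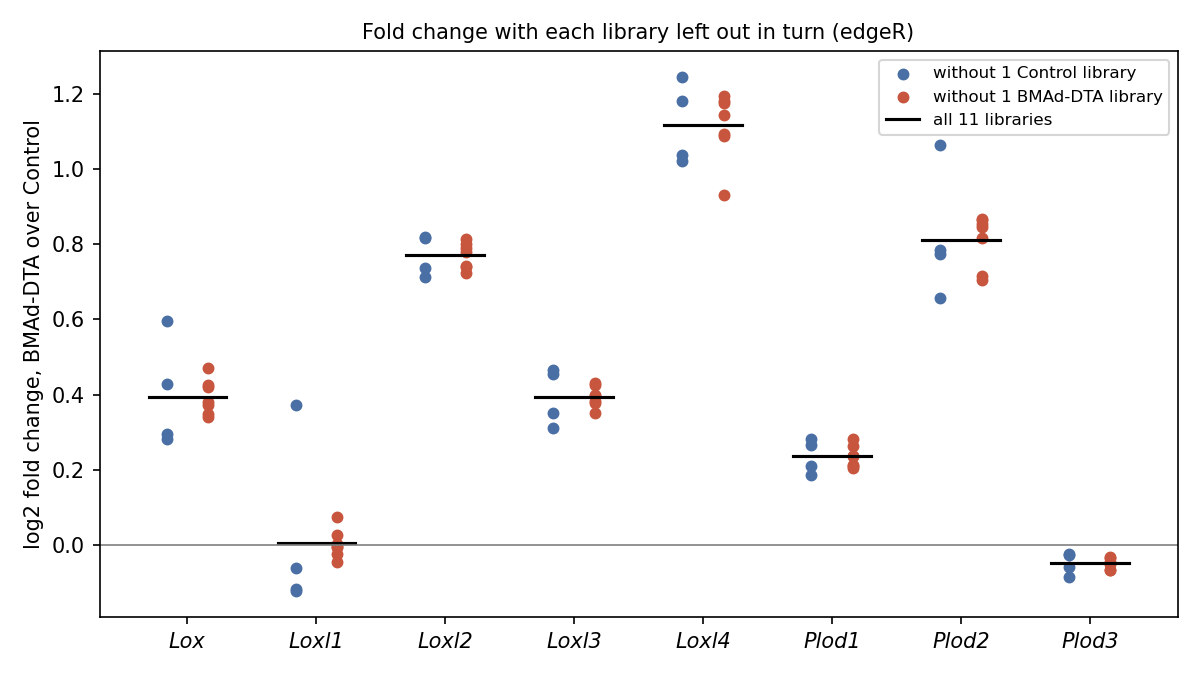
Log2 fold change (BMAd-DTA over Control, edgeR) of each gene with 1 library left out in turn; blue points leave out a Control, red points a BMAd-DTA library, and black lines use all 11. The value for Loxl2 stays between 0.71 and 0.82, while that for Loxl1 ranges from -0.12 to 0.37.

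Compared per length of exon, Lox was the most abundant of the 8 genes, with a mean of 41.9 CPM per kb over all libraries, followed by Loxl1 (31.3), Plod3 (18.3), Plod2 (12.1), Loxl2 (9.55), Plod1 (8.78), Loxl3 (7.18) and Loxl4 (2.50). The length was that of all annotated exons of a gene merged, from 3297 bases (Loxl1) to 6765 (Plod1). The order and the family shares below depend on it. Most neighbours in this order kept their places in 9 to 11 of 11 libraries. Loxl2 and Plod1 did not: Loxl2 was above Plod1 in 5 of 7 BMAd-DTA libraries and in 0 of 4 controls. Lox was above Loxl1 in every library but Control replicate 3.

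The make-up of each family followed from these levels. Among lysyl oxidases, Loxl4 held 1.85 ± 0.370% of the summed CPM per kb in controls (SD, n = 4) and 3.11 ± 0.967% in BMAd-DTA mice (SD, n = 7), without overlap. The share of Loxl2 was 8.60 ± 1.60% in controls and 11.4 ± 1.47% in BMAd-DTA mice, with 6 of 7 above every control. Loxl1 made up 38.0 ± 4.76% and 31.6 ± 3.07%, and Lox 43.7 ± 2.76% and 45.9 ± 3.22%, in the same order. The ratio of Loxl2 to Loxl1 in CPM was higher in all 7 BMAd-DTA libraries than in any control (means 0.600 and 0.380), as was that of Loxl4 to Lox (0.0596 and 0.0371). These shares and ratios restate the same counts and were not tested.

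Among lysyl hydroxylases, Plod3 was the larger component in both groups, at 54.2 ± 4.14% of the summed CPM per kb in controls and 43.7 ± 4.71% in BMAd-DTA mice, where 6 of 7 libraries lay below every control. Plod2 held 23.0 ± 5.05% and 33.9 ± 6.89%, and in BMAd-DTA replicates 2 and 3 it was above Plod3, reaching 45.1% in the former. Plod1 stayed at 22.8 ± 2.09% and 22.4 ± 2.91%. The mean ratio of Plod2 to Plod1 in CPM was 0.816 in controls and 1.25 in BMAd-DTA mice, with 3 of 7 above every control.

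**Figure D3:**
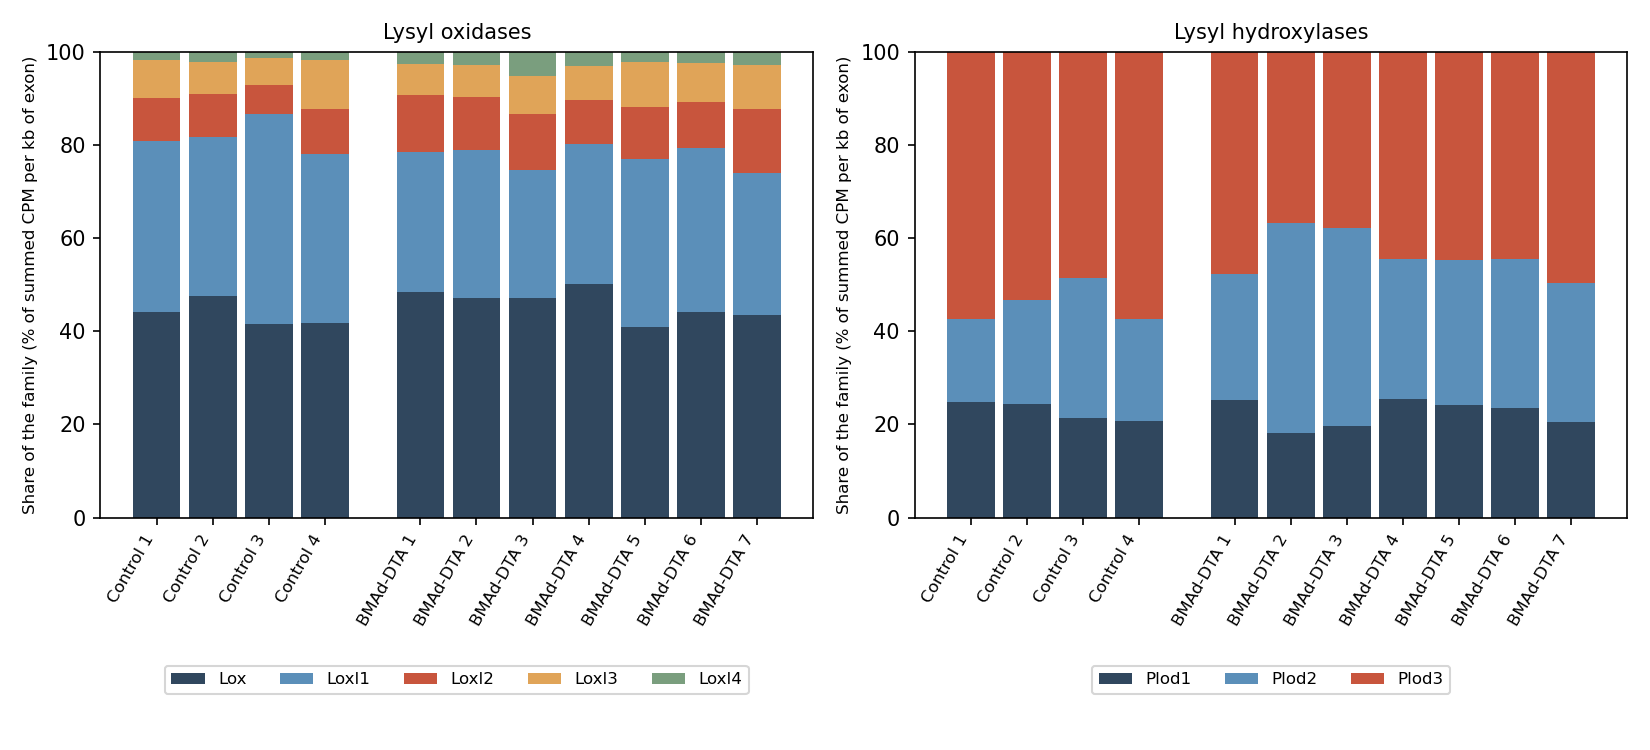
Share of each gene in its family (percent of the summed CPM per kb of exon) in every library, with lysyl oxidases at left and lysyl hydroxylases at right. In BMAd-DTA libraries Plod2 takes 27.2% to 45.1% of the hydroxylases against 17.8% to 29.9% in controls, and Loxl4 is the thinnest band of the oxidases throughout.

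The substrates of these enzymes had positive values that did not pass the test, and the lists were not compared by one. Of 9 collagen and elastin genes, all 9 had positive log2 fold changes (median 1.11), as did 8307 of all 16496 genes tested. After adjustment 0 passed edgeR's test. An unadjusted edgeR p under 0.05 was found for 7, all higher, against 7.89% of all genes under it and higher. DESeq2 called 4 higher, against 2.78% of the genes it gave an adjusted p. Col1a1 had the largest value, 1.35 ± 0.39 (SE; edgeR's adjusted p = 0.115), and Eln, which encodes elastin, the smallest, 0.075 ± 0.17 (SE; edgeR's adjusted p = 0.874). Without Control replicate 3, 2 of the 9 passed, in the fit that called 1.05% of all genes higher instead of 0.0727%.

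Of 19 partners and regulators of cross-linking, 17 had positive and 2 negative values (median 0.30 on the log2 scale), and 0 passed. An unadjusted edgeR p under 0.05 was found for 11, all higher, and DESeq2 called 8 higher. The shares of all genes higher by these measures were 7.89% and 2.78%. The list holds chaperones and prolyl 3-hydroxylase family proteins that work with lysyl hydroxylases, proteinases that mature lysyl oxidase, matrix proteins that bind it, and copper carriers. Tll2, a tolloid-like proteinase, had the largest value at 2.12 ± 0.40 (SE; edgeR's adjusted p = 0.0675), from a mean of 0.627 CPM in controls to 2.75 CPM in BMAd-DTA mice. Atp7a, the pump that loads copper into lysyl oxidases, had the lowest at -0.23 ± 0.13 (SE; edgeR's adjusted p = 0.412). Without Control replicate 3, 9 of 19 passed, and there too calls were more frequent over all genes (1.05%).

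Transglutaminases, which cross-link proteins by another chemistry, served for comparison. Of 5 genes listed, 4 passed the filter, 2 with positive and 2 with negative log2 fold changes between -0.26 (Tgm2) and 0.19 (Tgm3), with a median of -0.028. Neither edgeR nor DESeq2 called any of them, and none had an unadjusted edgeR p under 0.05.

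**Figure D4:**
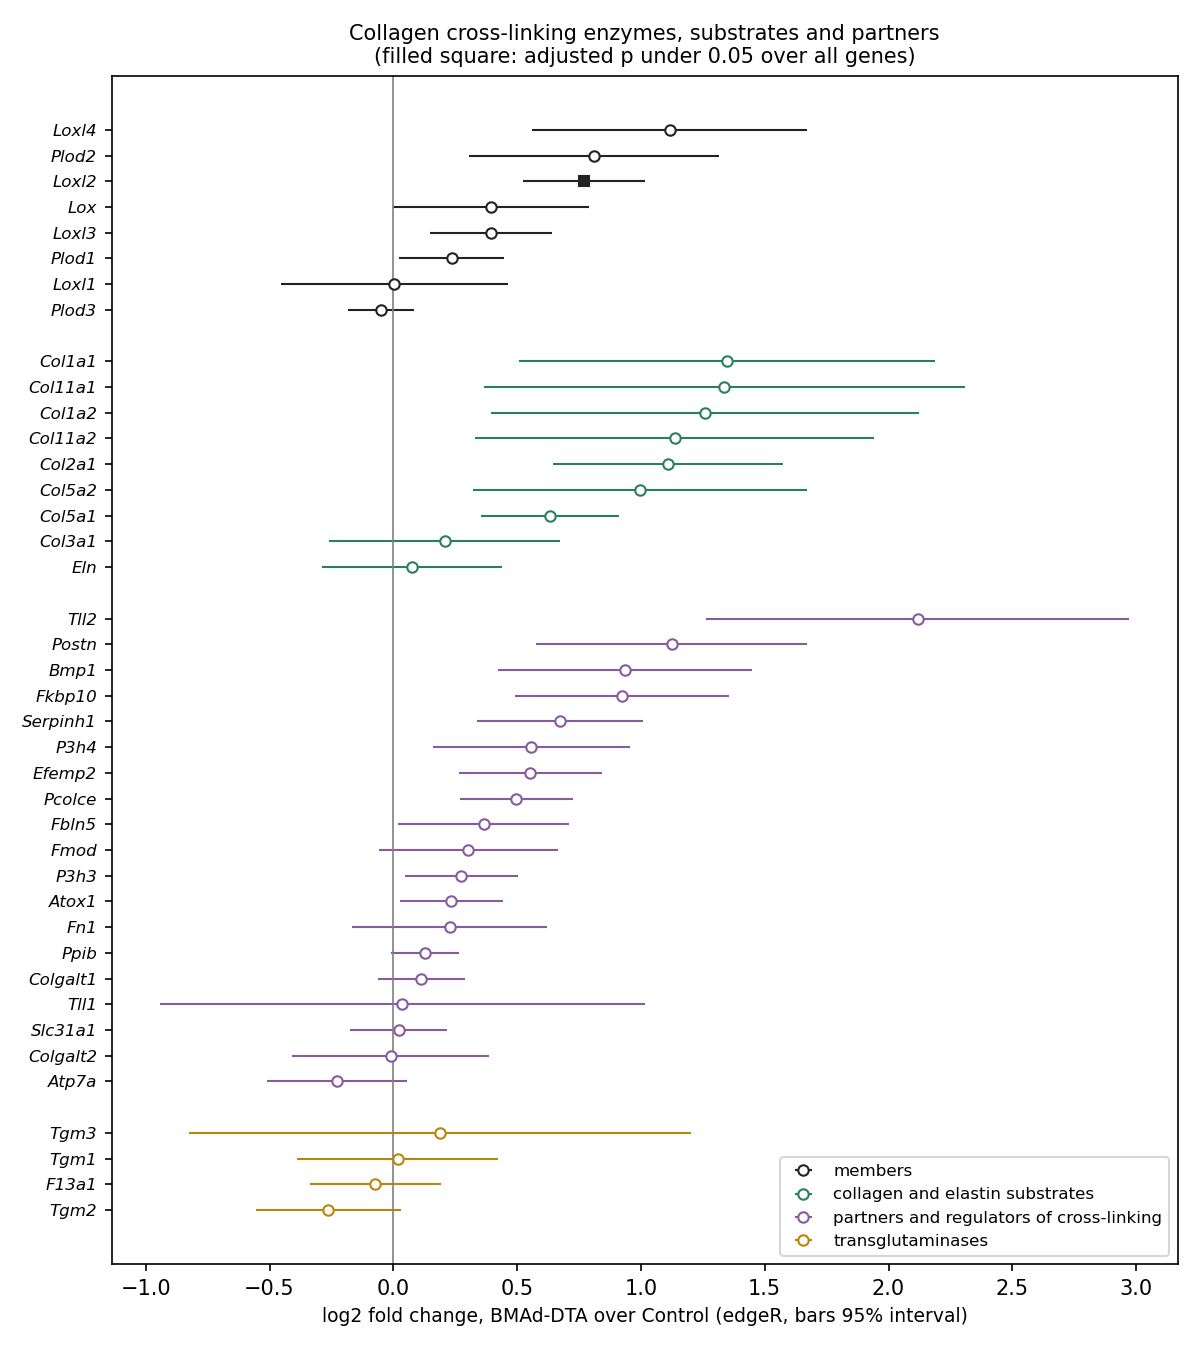
Log2 fold change (BMAd-DTA over Control, edgeR, horizontal axis) with 95% intervals for the 8 members, their collagen and elastin substrates, partners and regulators, and transglutaminases; a filled square marks an adjusted p under 0.05 over all genes. Loxl2 is the filled symbol, with a narrow interval from 0.52 to 1.02, beside the wide interval of Col1a1 around 1.35.

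Because type I collagen is the chief substrate in bone, the members were also counted against it. Col1a1 and Col1a2 together stood at 2266, 10297, 11456 and 10340 CPM in controls and at 13074 CPM in the lowest, 21100 in the median and 33231 in the highest BMAd-DTA library. All 7 were above every control, and the means differed 2.48-fold. Per 1000 type I collagen counts, Lox averaged 26.9 in controls and 11.2 in BMAd-DTA mice, Plod3 14.7 and 4.29, Loxl2 6.06 and 3.14, and Plod2 6.60 and 3.74. The control means rest on replicate 1: without it they were 16.6 for Lox, 8.12 for Plod3, 3.46 for Loxl2 and 4.54 for Plod2 (n = 3).

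On this scale 5 of 8 members were lower by edgeR's quasi-likelihood test (Lox, Loxl1, Loxl3, Plod1 and Plod3) and 0 higher, but so were 90.3% of all genes, against 0.0182% higher, so the count says nothing particular about the enzymes. Their log2 fold changes ran from -1.77 (Plod3) to -1.27 (Lox). The other members had values of -0.94 (Loxl2, edgeR's adjusted p = 0.0879), -0.82 (Plod2, 0.139) and -0.64 (Loxl4, 0.251). Control replicate 1, with the least collagen, had the highest ratio for every member. Without it 2 members passed (Loxl1 at -0.95 and Plod3 at -0.92), beside 65.5% of all genes. Lox was then at -0.57, Loxl3 at -0.54, Plod1 at -0.63, Plod2 at -0.28, Loxl2 at -0.14 (edgeR's adjusted p = 0.700) and Loxl4 at 0.078.

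**Figure D5:**
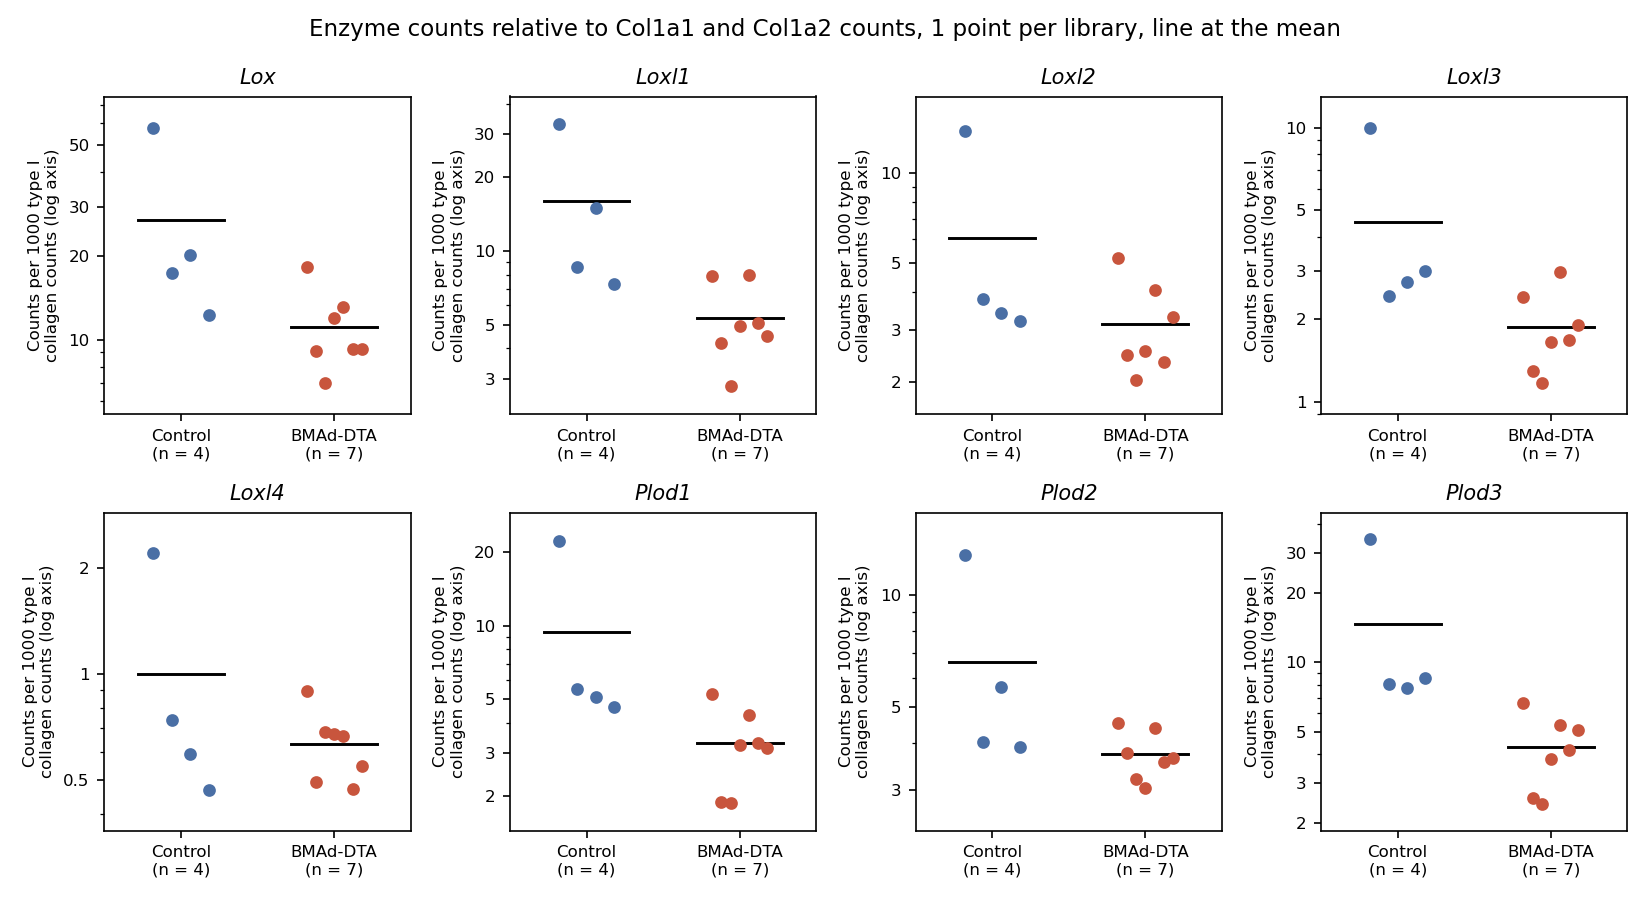
Counts of each gene per 1000 counts of Col1a1 and Col1a2 (logarithmic vertical axes) in 4 Control and 7 BMAd-DTA libraries, with a line at each mean. Control replicate 1 is the highest point in all 8 panels, and Loxl4 overlaps between the groups among the other libraries.

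The levels of cell type markers are given beside the members, since the libraries hold whole bone. In such bulk samples, more cells of a type and more RNA per cell cannot be told apart. All 10 osteoblast and osteocyte markers had positive log2 fold changes (median 0.90, with 1 called, Alpl), and their summed level was 809 to 1740 CPM in controls and 1786 to 3253 CPM in BMAd-DTA mice, with Ibsp the most abundant and none at 0. The BMAd-DTA libraries with the highest sums, replicates 3 (3253 CPM) and 2 (3045 CPM), were also those with the highest Plod2 (107 and 110 CPM). The others did not keep this order: BMAd-DTA replicate 1, next by sum (2544 CPM), held 59.4 CPM of Plod2. BMAd-DTA replicate 6, with a sum of 1891 CPM, held 75.1 CPM of Plod2. Loxl2 stayed closer to the order of the sums. It held 72.4, 68.2 and 67.6 CPM in BMAd-DTA replicates 2, 1 and 3, which had the highest sums. In BMAd-DTA replicates 5, 4, 6 and 7 the sums were 2143, 2032, 1891 and 1786 CPM. Loxl2 stood there at 58.7, 55.6, 49.4 and 53.3 CPM. Chondrocyte markers summed to 418 to 688 CPM in controls and 746 to 919 CPM in BMAd-DTA mice (7 of 7 tested positive, median 0.19, 0 called, none at 0). The separation came from Col2a1, which is also in the substrate list: without it the sums were 255 to 432 and 292 to 459 CPM. The part of these cells in the differences of Loxl2, Loxl4 and Plod2 was not tested.

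Fibroblast and periosteum markers summed to 1563 to 2183 CPM in controls and 1881 to 2483 CPM in BMAd-DTA mice, led by Dcn, and tendon markers, led by Thbs4, to 28.9 to 50.05 and 36.8 to 84.0 CPM. Muscle markers, led by Atp2a1, were lower on average in 10 of 10 cases with 0 called. Endothelial markers, led by Vwf, ranged from 723 to 872 and from 605 to 854 CPM, and marrow stromal markers, led by Cxcl12, from 3176 to 4847 and from 3137 to 5137 CPM. Neutrophil markers, led by Ngp, summed to 22258 to 25739 and 18218 to 26631 CPM. The 4 erythroid markers in the table, led by Slc4a1, summed to 2867 to 5840 and 3092 to 4843 CPM. Apart from osteoblast markers, and chondrocyte markers with Col2a1, each list overlapped between the groups.

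Within groups, the members also varied from library to library. Control replicate 3 was the highest control for 5 of 8 members and Control replicate 1 the lowest for 5, while BMAd-DTA replicate 2 was the highest of its group for 4 and replicate 7 the lowest for 6. After the group means were subtracted, Lox and Loxl1 were the most alike pair of members (Pearson r of log2 CPM 0.81 over 11 libraries). Among 12972 genes whose mean reached 50 counts, the gene most like each member was Mical2 for Lox (r = 0.94), Tesk1 for Loxl1 (0.97), Gm45871 for Loxl2 (0.95), Polb for Loxl3 (0.92), Med29 for Loxl4 (0.92), Meis3 for Plod1 (0.96), Mlip for Plod2 (0.97) and Tango6 for Plod3 (0.92). These libraries share depth and tissue content, and the values were picked as the highest of many, so they are given as a description.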

How the data were processed

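Libraries were stranded and sequenced as 100-base pairs. The authors checked reads with FastQC 0.11.9, used STAR with its default settings for alignment to mm10, and tested genotype with DESeq2; the annotation release is not given in the sources used here. The authors deposited raw gene counts, per library and merged, and for each member the merged table equals the own-strand column in all 11 libraries. No per-sample column was left unused (0).

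Counts were tested with edgeR 4.0.16 in R 4.3.3: filterByExpr by group, TMM scaling and the two-sided quasi-likelihood test with genotype as the only term, Benjamini-Hochberg adjusted over 16496 genes with a threshold of 0.05. CPM are TMM-scaled. DESeq2 1.42.0 and limma-voom (limma 3.58.1) were alternatives, besides other scalings, no filter, other count columns, a muscle covariate and leaving out each library. For the collagen comparison, library sizes were replaced by the Col1a1 and Col1a2 counts. Positions, exon lengths and coding stretches came from GENCODE M21, whose gene identifiers matched for all 8 members.

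The members and lists were chosen with earlier results of these data known. Named genes are the members, those called in each pathway list with its largest and smallest fold change, Col1a1 and Col1a2, the most similar genes and the most abundant marker of each cell type. Retn, Alpl, Htra2 and Znhit1 were named after their values were seen. On simulated counts with a log2 change of 1 in 200 genes, edgeR recovered 87.5% to 91% with 5 to 8 false calls. DESeq2 recovered 94% to 94.5% with 24 to 41 false calls. Whether these rates hold for libraries that differ in tissue content, as the present ones do, was not tested. In the present libraries edgeR called Alpl (log2 fold change 1.16) and Retn (-1.38) but not Loxl4 (1.12) or Col1a1 (1.35). Within a group, libraries differed by a chi-square of at least 18.3 per gene. Each library was taken as 1 mouse, since its group sizes are those the study gives for this RNA-Seq, although the labels do not tie libraries to animals; otherwise the p-values measure only the spread between these samples.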

Additional observations from a re-analysis of the deposited data

Results flagged for a closer look

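Loxl1 in Control replicate 3 stood at 172 CPM, with the next control at 88.9 CPM, and the gap made up 0.853 of the range of the 4 controls. Loxl4 in BMAd-DTA replicate 3 stood at 22.7 CPM, with the next library of its group at 14.7 CPM and a gap of 0.575 of the range. Both gaps exceeded Dixon's 95% critical value for their group size. Each of the 8 members was looked at in both groups, 16 in all, and chance alone flags about 1 in 20.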

How the results depend on the processing

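Loxl2 was called higher by edgeR and limma-voom, under each other scaling, without the filter and with either per-library count column. DESeq2 called 4 members, 4 substrates and 8 partners higher, against 1, 0 and 0 by edgeR, and 433 of all genes against 12. With the muscle covariate 0 members were called, and likewise 0 when, after seeing the data, Control replicate 3 and BMAd-DTA replicate 6 (Loxl2 at 0.86, edgeR's adjusted p = 0.0506) or Control replicates 1 and 3 (0.75, edgeR's adjusted p = 0.196) were left out together. Over all genes, the fit with the muscle covariate called 3. The fit without Control replicate 3 and BMAd-DTA replicate 6 called 1, and that without Control replicates 1 and 3 called 0. Leaving out single libraries gave 0 to 2 members called, 0 to 2 substrates and 0 to 9 partners, the upper ends without Control replicate 3, and 2 to 6 members lower relative to type I collagen. Over all genes and both directions, these fits called 0 to 292, and relative to type I collagen 10823 to 15140. Loxl1 changed sign without scaling (-0.0049) and ranged from -0.12 to 0.37 over single libraries left out, and Loxl4 relative to collagen from -0.88 to 0.078. The cause was not tested. With 4 controls, any 1 library weighs on every call. Depth limits Loxl4 most, at 91 to 400 counts per library. No paired analysis was made, because the labels name no link between a control and a BMAd-DTA library. They carry no replicate numbers either, and the numbers used here only name libraries.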

Other observations

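The 8 partners called by DESeq2 were Fkbp10, P3h4, Serpinh1, Bmp1, Tll2, Pcolce, Postn and Efemp2, and the 4 substrates were Col1a1, Col1a2, Col2a1 and Col5a1; they are named after their values were seen. Fkbp10, a chaperone that works with Plod2 in telopeptide hydroxylation, averaged 71.1 ± 18.96 CPM in controls (SD, n = 4) and 135 ± 32.2 CPM in BMAd-DTA mice (SD, n = 7). Every BMAd-DTA library was above every control, as for 1.78% of all genes tested. The log2 fold change of Fkbp10 was 0.92 ± 0.20 (SE), with adjusted p = 0.0676 by edgeR's quasi-likelihood test and 0.000354 by DESeq2. Serpinh1, the collagen chaperone HSP47, had a log2 fold change of 0.67 (edgeR's adjusted p = 0.0724), and P3h4, a partner of Plod1, one of 0.56 (edgeR's adjusted p = 0.152).

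Outside the cell, Bmp1, the proteinase that releases active lysyl oxidase, averaged 101 ± 35.4 CPM in controls and 193 ± 51.5 CPM in BMAd-DTA mice, with 6 of 7 above the highest control (log2 fold change 0.94, edgeR's adjusted p = 0.0895). Postn, the matricellular protein periostin that binds Bmp1, averaged 96.1 ± 35.0 and 209 ± 59.2 CPM (1.12, edgeR's adjusted p = 0.0720). Its BMAd-DTA libraries were all above all controls, as for 1.78% of all genes tested. Pcolce, an enhancer of procollagen cleavage, stood 0.50 higher on the log2 scale (edgeR's adjusted p = 0.0675), and Efemp2, which helps lysyl oxidase reach elastin, 0.55 higher (edgeR's adjusted p = 0.0798).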
